A study of Mus with 21 samples.

Results

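The choroid plexus genes described here are the 8 genes *Ttr*, *Folr1*, *Clic6*, *Otx2*, *Aqp1*, *Kl*, *Prlr* and *Enpp2*, which were taken by name from the 55335 genes of the deposited count table. Tested genes were the 30552 whose normalized counts added up to 10 or more across libraries, and all 8 are among them. A normalized count is a read count scaled to the mean effective library size, and CPM is the same count in the usual per-library unit. The libraries come from poly(A) RNA of whole brains of female mouse embryos at E17.5 on a C57BL/6J background, 1 embryo per library. The 5 *WT* embryos carried normal *Wapl* and *Nipbl* alleles. The 7 *Wapl*Δ/+ embryos carried 1 *Wapl* allele without its promoter and exons 1 and 2, a germline deletion. The 3 *Nipbl*+/− embryos carried 1 null *Nipbl* allele that was deleted in the male germ line by a Cre recombinase, and such heterozygotes die around birth. The 6 double heterozygotes carried both deletions. The labels give neither litter nor cross, so *P* values measure the spread between these embryos. The libraries held 25682566 to 35818767 counts on genes, with a median of 31830396.

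NIPBL loads the cohesin ring onto chromosomes and WAPL releases it, and the comparisons ask whether a smaller dose of either protein, or of both, changes RNA levels in the brain. The choroid plexus is a sheet of secretory epithelium around a vascular core that hangs in the brain ventricles. It grows out of the dorsal midline (the roof plate), makes cerebrospinal fluid by moving ions and water across the epithelium, and carries hormones, vitamins and folate from blood into that fluid. It is a small share of a whole brain, and in these bulk libraries fewer choroid plexus cells and less RNA per cell cannot be told apart.

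As a check of the labels, *Nipbl* stood at 1176 ± 97.9 normalized counts (SD, n = 3) in *Nipbl*+/− embryos and at 1187 ± 38.7 (SD, n = 6) in double heterozygotes, against 2166 ± 155 (SD, n = 5) in *WT* brains and 2120 ± 99.2 (SD, n = 7) in *Wapl*Δ/+ brains. *Wapl* stood at 697 ± 67.4 in *Wapl*Δ/+ brains and 736 ± 28.3 in double heterozygotes, against 1492 ± 77.0 in *WT* and 1392 ± 75.1 in *Nipbl*+/− brains, so each library matched its label. The mitochondrial gene *mt-Nd3* divides the libraries, with 0 to 6 counts in 12 of them and 52 to 106 counts in 9. High *mt-Nd3* was seen in replicates 4 and 5 of *WT*, 3 to 7 of *Wapl*Δ/+ and 5 and 6 of the double heterozygotes, and in no *Nipbl*+/− library. Among the 13 libraries with a *Wapl* deletion, high *mt-Nd3* coincided in all 13 with labels that put the deleted allele second, so within these genotypes *mt-Nd3* and allele order cannot be told apart. *WT* replicate 1 stood apart for the choroid plexus genes: it was the lowest of all 21 libraries for *Ttr*, *Folr1*, *Clic6* and *Aqp1* and for the summed level of 18 other choroid plexus genes, at 113 CPM where the other *WT* libraries had 136 to 161 CPM. Results that rest on this library are given with and without it.

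Across the genotypes *Otx2* and *Prlr* were the members that passed the test. *Prlr* fell in *Nipbl*+/− brains and *Otx2* rose in *Nipbl*+/− and double-heterozygote brains. The *Otx2* calls were close to the threshold and were lost in 5 of 8 and 6 of 11 fits that left out a library. The other 6 members passed in no comparison of genotypes. From embryo to embryo within a genotype, *Folr1*, *Clic6*, *Aqp1*, *Enpp2* and, less closely, *Kl* went up and down with *Ttr*. The members are described below from the secreted proteins and receptors to the channels and the transcription factor.

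*Ttr* encodes transthyretin, the thyroxine and retinol-binding protein carrier that choroid plexus epithelium secretes into cerebrospinal fluid, and it lies at chr18:20664209-20674326 of GRCm38. In *WT* brains its normalized count was 11328, 17848, 24393, 17233 and 22762 in replicates 1 to 5, a coefficient of variation of 27.5%. In *Nipbl*+/− brains it was 15002, 18616 and 16361. The *Nipbl*+/− libraries therefore lay inside the *WT* range. *Wapl*Δ/+ brains ran from 16809 over a median of 21986 to 27896, and double heterozygotes from 15749 over 18083 to 19611. All groups overlapped. Against *WT*, the log2 fold change of *Ttr* was -0.17 in *Nipbl*+/− (standard error 0.157, adjusted *P* = 0.615), 0.20 in *Wapl*Δ/+ (standard error 0.141, adjusted *P* = 0.521) and -0.06 in double-heterozygote brains (standard error 0.129, adjusted *P* = 0.902), each from edgeR's quasi-likelihood test with Benjamini-Hochberg adjustment over all tested genes. Liver also makes transthyretin, and 6 liver and yolk sac markers summed to 1.05 to 9.78 CPM per library, where *Ttr* averaged 529 to 684 CPM per group; their part in the *Ttr* values was not tested.

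*Enpp2* encodes autotaxin, a secreted enzyme that makes lysophosphatidic acid, and lies at chr15:54838901-54952789. Its normalized count was 1501, 1852, 1922, 1803 and 1915 in *WT* and 1398, 1805 and 1617 in *Nipbl*+/− brains. It ran from 1481 to 2261 in *Wapl*Δ/+ brains and from 1433 to 1858 in double heterozygotes. Every group overlapped *WT*, and the log2 fold changes were -0.17 (standard error 0.0792, adjusted *P* = 0.245), 0.04 (standard error 0.0887, adjusted *P* = 0.865) and -0.11 (standard error 0.0645, adjusted *P* = 0.515, edgeR) in *Nipbl*+/−, *Wapl*Δ/+ and double-heterozygote brains. The *Nipbl*+/− value passed in the fits without *WT* replicate 1 (-0.22, edgeR adjusted *P* = 0.0553) and without *Nipbl*+/− replicate 2 (-0.26, edgeR adjusted *P* = 0.0381). These are the lowest *WT* and the highest *Nipbl*+/− library, so leaving out either widens the difference. The other 6 of 8 fits that left out a library did not pass. Oligodendrocyte precursors also make autotaxin, and 4 of 7 oligodendrocyte lineage markers fell in *Nipbl*+/− brains (11.2% of all tested genes were called there), among them *Pdgfra*, the growth factor receptor of those precursors (log2 fold change -0.60, edgeR adjusted *P* = 3.94e-05), and *Olig1* (-0.26). Those markers summed to 229 to 275 CPM in *Nipbl*+/− and 289 to 306 CPM in *WT* libraries, and their part in the *Enpp2* values was not tested.

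*Folr1* encodes folate receptor alpha, which carries folate across the epithelium, and lies at chr7:101858331-101870788. It had the widest *WT* spread of the 8 genes, with normalized counts of 131, 237, 311, 246 and 309 (coefficient of variation 29.7%). The *Nipbl*+/− libraries held 186, 241 and 194, the *Wapl*Δ/+ libraries 201 to 345 and the double heterozygotes 176 to 247. No group separated from *WT*, and the log2 fold changes were -0.25 (standard error 0.192, adjusted *P* = 0.524), 0.11 (standard error 0.154, adjusted *P* = 0.788) and -0.19 (standard error 0.154, adjusted *P* = 0.649, edgeR) in *Nipbl*+/−, *Wapl*Δ/+ and double-heterozygote brains.

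*Prlr* encodes the prolactin receptor, a cytokine receptor that senses prolactin, and lies at chr15:10177238-10349190. It is the member with the lowest counts beside *Kl*, from 42 to 91 reads per library. The RefSeq gene *Gm41268* overlaps it and has no row under that name in the table, so reads of this pair cannot be told apart. Its normalized count in *WT* brains was 79.8, 90.3, 77.6, 66.0 and 79.0. In *Nipbl*+/− brains it was 48.7, 52.5 and 44.5, so the highest *Nipbl*+/− library lay below the lowest *WT* library. The log2 fold change was -0.69 (standard error 0.144, edgeR adjusted *P* = 0.00566), which is a level 38.2% lower. *Wapl*Δ/+ brains ran from 56.6 over 69.3 to 87.2 (log2 fold change -0.13, standard error 0.115, edgeR adjusted *P* = 0.649) and double heterozygotes from 58.9 over 66.8 to 69.5 (-0.25, standard error 0.105, edgeR adjusted *P* = 0.285). Both overlapped *WT*. Every double heterozygote lay above every *Nipbl*+/− library, but how many of all tested genes separate in this way was not counted. The direct comparison did not pass (log2 fold change 0.43, standard error 0.135, unadjusted *P* = 0.00553, edgeR adjusted *P* = 0.971), and nor did the interaction of the genotypes (0.53, standard error 0.173, edgeR adjusted *P* = 0.203). Leaving out each library in turn kept the *Nipbl*+/− call in 8 of 8 fits, with log2 fold changes from -0.76 to -0.62, and among libraries with low *mt-Nd3* alone it was -0.77 (edgeR adjusted *P* = 0.0159). *Prl*, the prolactin gene, named here after its values were seen, had 0 to 10 counts in any library.

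*Kl* encodes klotho, a co-receptor for fibroblast growth factor 23 whose shed form circulates in cerebrospinal fluid, and lies at chr5:150952607-150993817. Its normalized count was 70.8, 80.0, 88.4, 84.4 and 94.0 in *WT* brains, and 77.5, 72.9 and 66.8 in *Nipbl*+/− brains. *Wapl*Δ/+ brains had the widest spread, from 55.8 to 112 (coefficient of variation 24.9%), and double heterozygotes ran from 61.7 to 88.9. Each group overlapped *WT*, with log2 fold changes of -0.21 (standard error 0.132, adjusted *P* = 0.427), -0.04 (standard error 0.145, adjusted *P* = 0.923) and -0.11 (standard error 0.117, adjusted *P* = 0.768, edgeR) in *Nipbl*+/−, *Wapl*Δ/+ and double-heterozygote brains.

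*Aqp1* encodes the water channel of the apical membrane, and lies at chr6:55336299-55348555. Its normalized count was 402, 561, 690.1, 505 and 699.8 in *WT* and 476, 547 and 511 in *Nipbl*+/− brains, 475 to 693 in *Wapl*Δ/+ brains and 525 to 681 in double heterozygotes. The log2 fold changes were -0.16 (standard error 0.130, adjusted *P* = 0.553), 0.08 (standard error 0.115, adjusted *P* = 0.795) and 0.04 (standard error 0.109, adjusted *P* = 0.932, edgeR), and the groups overlapped. The *Wapl*Δ/+ value turned with the *mt-Nd3* sets: replicates 1 and 2, with low *mt-Nd3*, held 475 and 502 and replicates 3 to 7 held 615 to 693, and the log2 fold change was -0.17 among libraries with low *mt-Nd3* alone. Red blood cells also carry this channel, and 6 erythroid markers summed to 339 to 813 CPM per library, with 0 of 6 called in any of the 3 comparisons with *WT*. In these comparisons 2.22% to 11.2% of all tested genes were called.

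*Clic6*, which encodes a chloride intracellular channel protein, lies at chr16:92498147-92541241. Its *WT* libraries held 350, 530, 677, 446 and 657 normalized counts and its *Nipbl*+/− libraries 576, 596 and 610, the narrowest group of any member (coefficient of variation 2.94%, against 26.1% in *WT*). *Wapl*Δ/+ brains held 524 to 751 and double heterozygotes 518 to 718. The 3 mutant means lay above that of *WT* and inside its range, with log2 fold changes of 0.16 (standard error 0.144, adjusted *P* = 0.630), 0.19 (standard error 0.125, adjusted *P* = 0.498) and 0.22 (standard error 0.125, adjusted *P* = 0.486, edgeR) in *Nipbl*+/−, *Wapl*Δ/+ and double-heterozygote brains, and without *WT* replicate 1 they were 0.04, 0.06 and 0.09.

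*Otx2* encodes a homeodomain transcription factor that forms and maintains the choroid plexus and also patterns midbrain, retina and pineal gland, and lies at chr14:48656781-48667644. Its normalized count was 653, 706, 773, 599.5 and 746 in *WT* brains and 898, 739.7 and 815 in *Nipbl*+/− brains. The groups overlapped in *Nipbl*+/− replicate 2, which lay below 2 *WT* libraries. The log2 fold change was 0.23 (standard error 0.0750, edgeR adjusted *P* = 0.0745), a level 17.1% higher. Double heterozygotes ran from 714 over a median of 822 to 927, higher than *WT* by 0.25 on the log2 scale (standard error 0.0681, edgeR adjusted *P* = 0.0639). *Wapl*Δ/+ brains ran from 708 over 791 to 896, and their log2 fold change of 0.18 did not pass (standard error 0.0658, edgeR adjusted *P* = 0.186). The calls were close to the threshold: the *Nipbl*+/− call was lost in 5 of 8 fits that left out a library (adjusted *P* from 0.0176 to 0.364) and the double-heterozygote call in 6 of 11 (adjusted *P* from 0.0105 to 0.201), *WT* replicate 1 among them in both, with log2 fold changes that stayed between 0.16 and 0.30. Without *Nipbl*+/− replicate 1 the *Nipbl*+/− value was 0.16 (edgeR adjusted *P* = 0.364). Without double-heterozygote replicate 1 the double-heterozygote value was 0.22 (edgeR adjusted *P* = 0.159). Each of these libraries held the highest *Otx2* level of its group. Among libraries with low *mt-Nd3* alone the *Nipbl*+/− value was 0.20 (edgeR adjusted *P* = 0.212). The 11 eye and pineal markers summed to 38.1 to 45.6 CPM in all libraries, with 0 of 10 tested genes called in any of the 3 comparisons with *WT*. In these comparisons 2.22% to 11.2% of all tested genes were called.

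**Figure D1:**
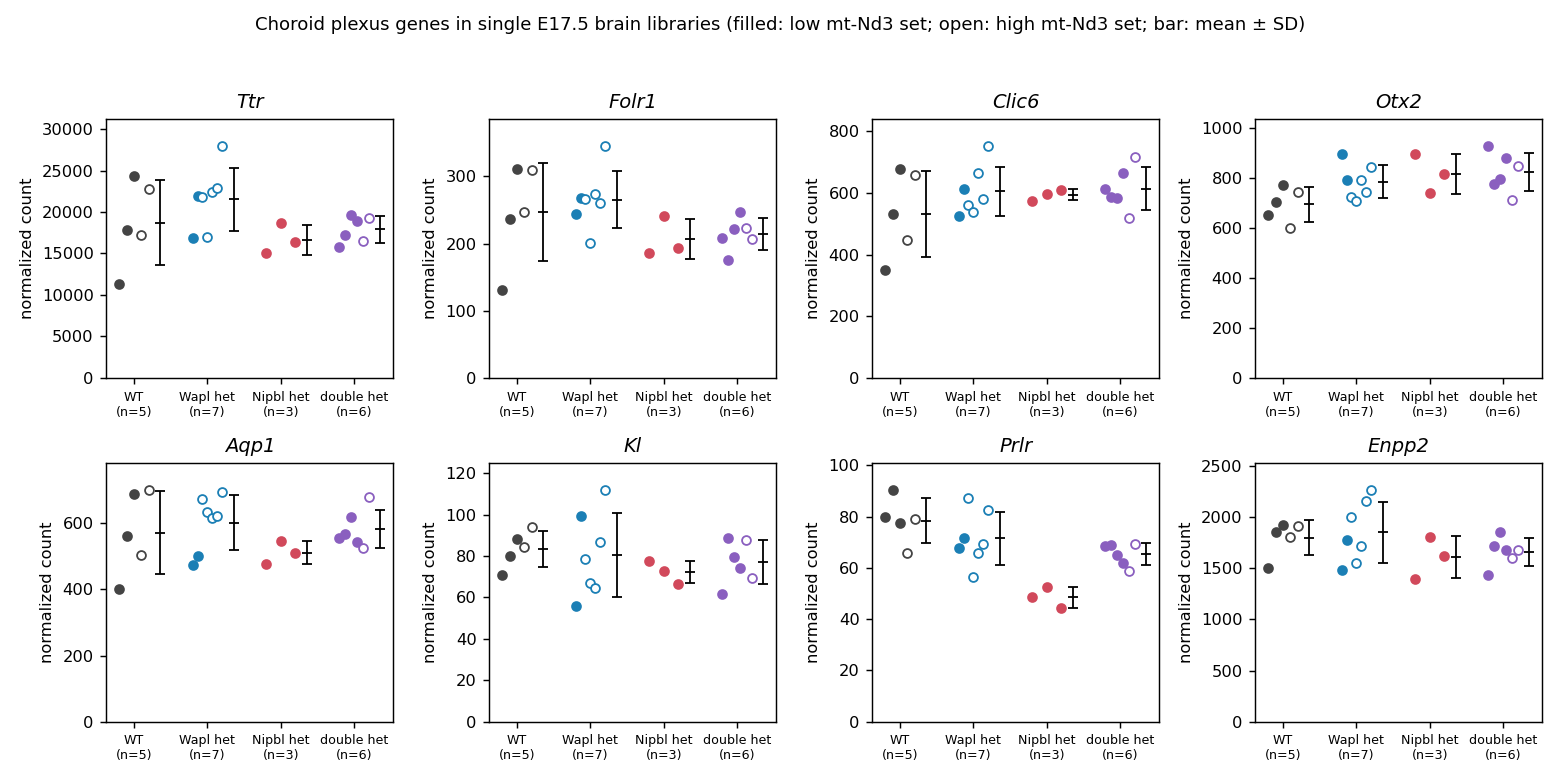
Normalized counts (vertical axes, each from 0) of the 8 choroid plexus genes in single libraries of the 4 genotypes, with filled points for libraries with low *mt-Nd3*, open points for those with high *mt-Nd3*, and bars for the group mean ± SD. *Prlr* in the 3 *Nipbl*+/− libraries, at 44.5 to 52.5, lies below all *WT* libraries, and *WT* replicate 1 is the lowest point for *Ttr*, *Folr1*, *Clic6* and *Aqp1*.

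Counted over the members, 2 of 8 were called in *Nipbl*+/− brains, 1 higher and 1 lower, where 11.2% of all tested genes were called. The median log2 fold change of the members was -0.17, and that of all tested genes -0.01. A single member, *Prlr*, had groups that did not overlap, as did 13.4% of all tested genes. Without *WT* replicate 1 the count became 4 of 8, all lower, where 8.86% of all tested genes were called and 5.1% were called lower: *Ttr* (-0.30, edgeR adjusted *P* = 0.0892), *Folr1* (-0.41, edgeR adjusted *P* = 0.0522) and *Enpp2* (-0.22, edgeR adjusted *P* = 0.0553) joined *Prlr* (-0.68, edgeR adjusted *P* = 0.0155), and *Otx2* left it. That library was singled out for its low values of *Ttr*, *Folr1*, *Clic6* and *Aqp1*. It was the lowest *WT* library for *Enpp2* too. Leaving it out lowers the fold changes of these members by construction, which does not hold for all tested genes. The calls that joined are therefore no separate support. In *Wapl*Δ/+ brains 0 of 8 were called (2.22% of all tested genes were) and 0 of 8 had separate groups (1.2% of all), with a median of 0.09 over the members and -0.00340 over all tested genes. In double heterozygotes 1 of 8 was called (3.28% of all) and 0 of 8 had separate groups (2.76% of all), with medians of -0.08 and 0.000701. All 3 comparisons share the 5 *WT* libraries. Against *Nipbl*+/− brains, 0 of 8 members differed in double heterozygotes (0.00655% of all tested genes were called). Against *Wapl*Δ/+ brains 0 of 8 differed (1.02% of all), where *Folr1* (log2 fold change -0.30, unadjusted *P* = 0.00561, edgeR adjusted *P* = 0.234) and *Ttr* (-0.26, unadjusted *P* = 0.00937, edgeR adjusted *P* = 0.288) came nearest, and *Folr1* passed without *Wapl*Δ/+ replicate 4 (-0.36, edgeR adjusted *P* = 0.0886). In the interaction 0 of 8 members were called by edgeR, as were 0 of all tested genes (0%), with 4221 of all genes at an unadjusted *P* below 0.05. DESeq2 called 793 genes there and 0 members.

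**Figure D2:**
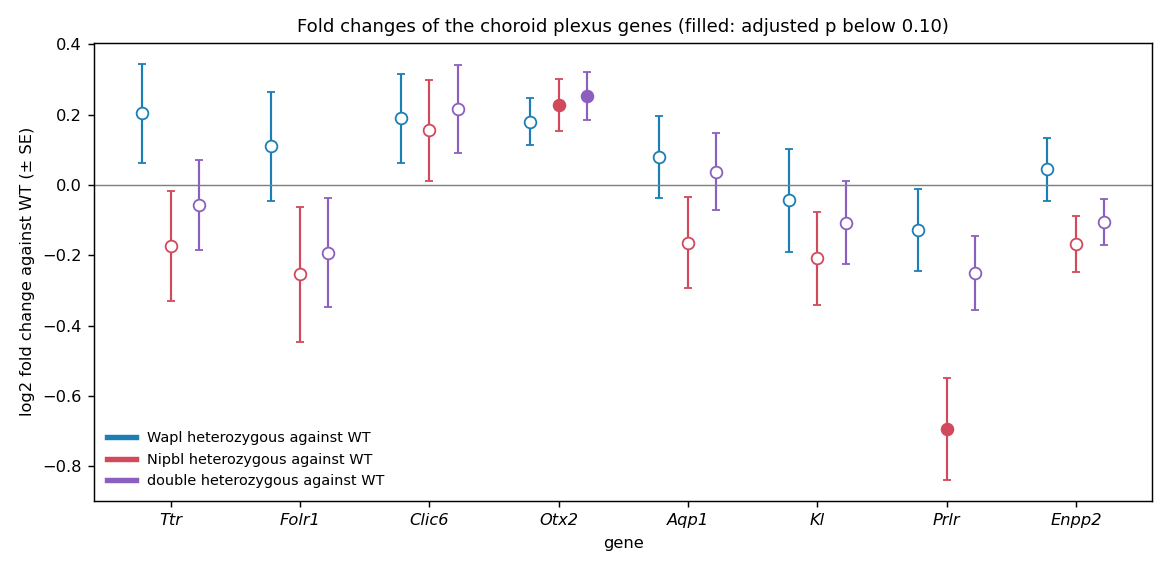
Log2 fold changes against *WT* (vertical axis) of the 8 choroid plexus genes in *Wapl*Δ/+, *Nipbl*+/− and double-heterozygote brains, with bars for the standard error and filled points for an adjusted *P* below 0.10. The filled points are *Prlr* at -0.69 and *Otx2* at 0.23 in *Nipbl*+/− and *Otx2* at 0.25 in double-heterozygote brains.

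Since much of the spread lay between embryos of 1 genotype, the levels were next compared within genotypes. The group mean of log2 CPM was subtracted for each gene, and the members were correlated with *Ttr* over the 21 libraries. *Folr1* followed *Ttr* most closely (Pearson's r = 0.902, permutation *P* = 1e-05, the smallest these permutations can give; Spearman's rho = 0.761, permutation *P* = 0.00019). *Clic6* had an r of 0.882 and a rho of 0.747, *Enpp2* an r of 0.816 and a rho of 0.827 and *Aqp1* an r of 0.810 and a rho of 0.774. The permutation *P* values of these 4 genes, adjusted over the 7 correlations, were 1.75e-05 for r and at most 0.000332 for rho. *Kl* had an r of 0.593 (adjusted permutation *P* = 0.00647) and a rho of 0.464 (adjusted permutation *P* = 0.0501). *Prlr* (r = 0.307, adjusted permutation *P* = 0.205; rho = 0.308, adjusted permutation *P* = 0.203) and *Otx2* (r = 0.237, adjusted permutation *P* = 0.306; rho = 0.190, adjusted permutation *P* = 0.408) did not pass. The points share the library, so its depth and composition enter both axes. The permutations shuffled libraries across genotypes, whose spreads differ, after the group means were subtracted, so their *P* values are approximate.

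The libraries farthest from the median of *Ttr* were *WT* replicates 1 and 3, at -0.67 and 0.43 on the log2 scale from their group mean. Without them r was 0.805 for *Folr1*, 0.769 for *Clic6*, 0.853 for *Enpp2*, 0.666 for *Aqp1* and 0.62 for *Kl*, 0.483 for *Prlr* and 0.0569 for *Otx2*. Without all 5 *WT* libraries *Prlr* rose to an r of 0.565 and passed, and *Otx2* turned to -0.0778. Among the other pairs of members, r ran from 0.798 for *Folr1* with *Clic6* to -0.155 for *Otx2* with *Enpp2*, and the highest r of *Otx2* with any member was 0.550, with *Clic6*. Differences between these correlations were not tested.

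**Figure D3:**
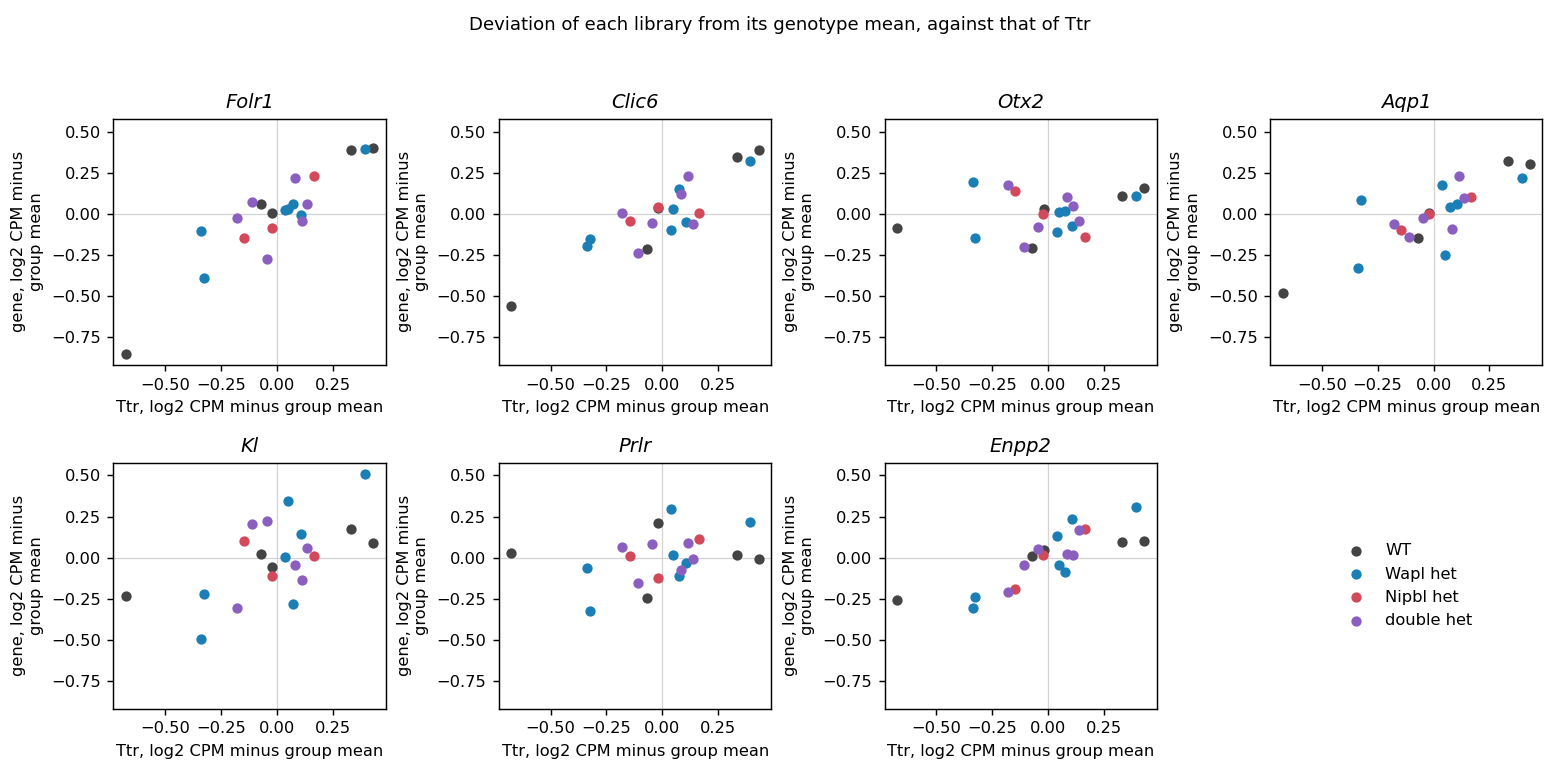
Log2 CPM minus the genotype mean in each of 21 libraries, for 7 genes (vertical axes) against *Ttr* (horizontal axes), coloured by genotype. *Folr1* (r = 0.902) and *Clic6* (r = 0.882) line up with *Ttr*, and *Otx2* (r = 0.237) and *Prlr* (r = 0.307) scatter.

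The genes most like *Ttr* by the same measure, among non-members with a mean of at least 1 CPM, were *Car12* (r = 0.918), a membrane carbonic anhydrase, *Slc4a5* (0.873), a bicarbonate transporter of the apical membrane, *Wfikkn2* (0.871), a secreted protease inhibitor, *Sostdc1* (0.860), a secreted BMP and Wnt antagonist, and *Cldn2* (0.860), a tight junction protein of leaky epithelia. All 5 belong to the list of 18 measured choroid plexus genes. The genes most like *Otx2* were *E330011M16Rik* (0.864), *Gm4881* (0.857), *Tfcp2* (0.846), a widely expressed transcription factor, *Nkx2-1* (0.836), a transcription factor of the ventral forebrain, and *2600006K01Rik* (0.820). None of these 5 belongs to any of the marker lists. By these correlations *Folr1*, *Clic6*, *Aqp1*, *Enpp2* and, less closely, *Kl* varied with *Ttr*, whose most like genes were choroid plexus genes. *Otx2* and *Prlr* did not pass with *Ttr* at this number of libraries, although *Prlr* passed without the *WT* libraries. The tissue that the RNA of each member came from was not tested.

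Each member was also expressed relative to other choroid plexus genes of its own library, as the log2 ratio of its CPM to the summed CPM of the 18 other choroid plexus genes. By mean CPM, *Ace* made up 27.2% of that sum and *Lmx1a*, called higher in *Nipbl*+/− brains, 4.82%. How closely the sum follows the amount of choroid plexus RNA was not tested. *Prlr* stood at -6.46 ± 0.0683 (SD, n = 3) in *Nipbl*+/− and -5.82 ± 0.277 (SD, n = 5) in *WT* brains, a difference of -0.63 with no overlap (two-sided exact permutation *P* = 0.0357, the smallest that 3 against 5 libraries allow). *Otx2* differed by 0.29 in *Nipbl*+/− (-2.39 ± 0.252 against -2.67 ± 0.162, exact permutation *P* = 0.107) and by 0.25 in double-heterozygote brains (-2.43 ± 0.176, exact permutation *P* = 0.0433). *Clic6* differed by 0.25 in both (exact permutation *P* = 0.107 and *P* = 0.0736). *Ttr* differed by -0.07, 0.15 and -0.02 in *Nipbl*+/−, *Wapl*Δ/+ and double-heterozygote brains (exact permutation *P* = 0.643, 0.169 and 0.900). Adjusted over the 24 tests of 8 members in 3 comparisons, none passed, with adjusted *P* of 0.367 or more. With 0.0357 as the smallest possible exact permutation *P*, a *Nipbl*+/− test could pass only if many of the 24 tests gave values as small. The adjusted values therefore cannot decide on the *Nipbl*+/− differences. In the fits across all genes, the summed level of the 18 genes was added as a term, an alternative chosen after seeing the data. *Prlr* then had a log2 fold change of -0.69 (edgeR adjusted *P* = 0.00968) and *Otx2* of 0.24 (edgeR adjusted *P* = 0.0642) in *Nipbl*+/− brains, *Clic6* passed there at 0.27 (edgeR adjusted *P* = 0.0631), and *Otx2* was at 0.26 (edgeR adjusted *P* = 0.0629) in double heterozygotes.

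**Figure D4:**
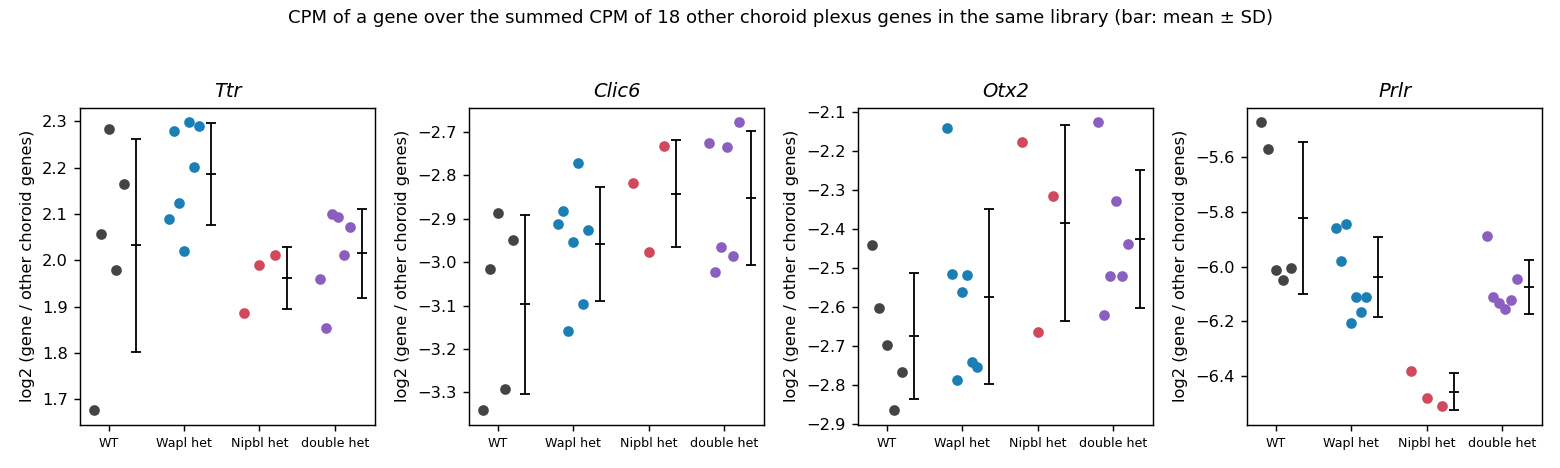
Log2 ratio of the CPM of *Ttr*, *Clic6*, *Otx2* and *Prlr* to the summed CPM of 18 other choroid plexus genes in the same library (vertical axes, not from 0), by genotype, with bars for the mean ± SD. The *Nipbl*+/− libraries are lowest for *Prlr*, at a mean of -6.46 against -5.82 in *WT*.

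Of 19 other choroid plexus genes listed, 18 were in the table and tested. In *Nipbl*+/− brains 1 rose and 1 fell, where 11.2% of all tested genes were called (median log2 fold change -0.07, and 7 of 18 above 0). The gene that rose was *Lmx1a* (0.25, edgeR adjusted *P* = 0.0831), the roof plate transcription factor that specifies choroid plexus, with 226 to 266 normalized counts against 192 to 219 in *WT* and no overlap. The gene that fell was *Cldn2* (-0.61, edgeR adjusted *P* = 0.0906), with 51.7 to 71.9 against 64.6 to 137. In *Wapl*Δ/+ brains 0 of 18 were called (2.22% of all tested genes were), 16 lay above 0 and the median was 0.10. In double heterozygotes 0 of 18 were called (3.28% of all tested genes were), with a median of 0.04.

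In *Nipbl*+/− brains, where 11.2% of all tested genes were called, 0 of 14 transport genes of the epithelium rose and 5 fell (median -0.10). They were *Atp1b1*, a subunit of the sodium pump (-0.43, edgeR adjusted *P* = 0.00101), *Car2*, a cytosolic carbonic anhydrase (-0.39), *Slc4a10*, a bicarbonate transporter (-0.35), *Slc12a2*, the sodium, potassium and chloride cotransporter (-0.33), and *Slc23a2*, the vitamin C transporter (-0.23). In double heterozygotes, where 3.28% of all tested genes were called, 3 of these fell: *Car2* (-0.33), *Atp1b1* (-0.30) and *Slc12a2* (-0.16, edgeR adjusted *P* = 0.0808). Neurons and glia express these genes too: *Atp1b1* had 6032 to 9661 normalized counts in all libraries, and *Car2* is also a gene of the oligodendrocyte lineage. The tissue in which the transport genes fell was not tested. In *Wapl*Δ/+ brains 0 of 14 were called, where 2.22% of all tested genes were (median 0.00635).

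The partners of the members are the ligands, receptors and carriers they act with, 23 genes in all. In *Nipbl*+/− brains, where 11.2% of all tested genes were called, 3 of the 23 rose and 3 fell (median -0.03). On the retinol side of transthyretin, *Rbp4*, the plasma retinol carrier it binds, fell with no overlap, to 25.9 ± 0.610 normalized counts (SD, n = 3) against 42.3 ± 7.88 in *WT* (SD, n = 5) (-0.71, edgeR adjusted *P* = 0.0343). *Stra6*, the receptor of that carrier, rose with no overlap (0.30, edgeR adjusted *P* = 0.0136). On the thyroxine side *Slco1c1*, a thyroxine transporter, fell (-0.20, edgeR adjusted *P* = 0.0452), and of the receptors for the product of autotaxin *Lpar1* fell (-0.23, edgeR adjusted *P* = 0.0310) and *Lpar2*, named after its values were seen, rose (0.15, edgeR adjusted *P* = 0.0965). In double heterozygotes 1 of 23 rose and 0 fell, where 3.28% of all tested genes were called. In *Wapl*Δ/+ brains 1 of 23 was called (2.22% of all tested genes were), *Gh*. That call rests on *WT* replicate 2, which had 2056 *Gh* counts and 90.4 CPM over 7 pituitary markers where the other *WT* libraries had 2.41 to 2.65 CPM.

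In *Nipbl*+/− brains, where 11.2% of all tested genes were called, 4 of 17 roof plate and choroid plexus regulators rose and 1 fell (median 0.02). *Rspo3*, a Wnt agonist (0.37, edgeR adjusted *P* = 0.0554), *Otx1*, the paralog of *Otx2* (0.31, edgeR adjusted *P* = 0.00912), *Lmx1b* (0.29, edgeR adjusted *P* = 0.0916) and *Lmx1a* rose. *Lmx1a* was also counted above among the other choroid plexus genes. The tissue in which the genes of this list changed was not tested. *Otx1* held 457 to 483 normalized counts against 348 to 415 in *WT*, with no overlap. *Rspo2*, another Wnt agonist of the list, fell from 247 ± 8.77 (SD, n = 5) to 153 ± 13.2 (SD, n = 3) with no overlap (-0.69, edgeR adjusted *P* = 0.000137), and in double heterozygotes to 179 ± 29.4 (SD, n = 6; -0.45, edgeR adjusted *P* = 0.0184), where it was the 1 called gene of the 17 (3.28% of all tested genes were called). In *Wapl*Δ/+ brains 0 of 17 were called (2.22% of all tested genes were).

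Neighbouring tissues moved as follows beside these results. Of all tested genes, 11.2% were called in *Nipbl*+/−, 2.22% in *Wapl*Δ/+ and 3.28% in double-heterozygote brains against *WT*. Of 8 ependymal and ciliary genes 0 were called in any of the 3 comparisons with *WT*. Of 8 meningeal fibroblast markers, *Slc6a13* fell in *Nipbl*+/− brains (-0.32) and *Col1a1* (0.62) and *Col1a2* (0.38) rose in *Wapl*Δ/+ brains, where all 8 lay above 0 and the sum ran from 432 to 789 CPM against 402 to 545 CPM in *WT*. Of 4 endothelial markers *Cdh5* rose in *Nipbl*+/− (0.16) and *Wapl*Δ/+ brains (0.15). Of the oligodendrocyte markers 5 of 7 fell in double heterozygotes, *Pdgfra* (-0.40) the most, and of the liver markers *Alb* was called there, in libraries with 1.05 to 6.53 CPM over the list. The part of these tissues in the members' values was not tested.

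*Prlr* and *Enpp2* lie on chromosome 15 with *Nipbl*, 1.71 Mb and 46.4 Mb from it, and *Otx2* on chromosome 14 with *Wapl*, 13.9 Mb from it. Within 5 Mb of *Nipbl*, a window chosen after the values were seen, 76 other genes were tested. In *Nipbl*+/− brains 22.4% of them were called, 2 higher and 15 lower, *Prlr* among the latter, where 11.2% of all tested genes were called, 1297 higher and 2125 lower. Within 5 Mb of *Wapl* in the same comparison 14.2% of 106 genes were called, 3 higher and 12 lower. In double heterozygotes 10.5% of the genes near *Nipbl* were called, 2 higher and 6 lower, without *Prlr* (3.28% of all tested genes), and in *Wapl*Δ/+ brains 1.32% (2.22% of all). Of the genes near *Wapl*, 4.72% were called in double heterozygotes and 5.66% in *Wapl*Δ/+ brains. Differences between the windows were not tested.

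**Figure D5:**
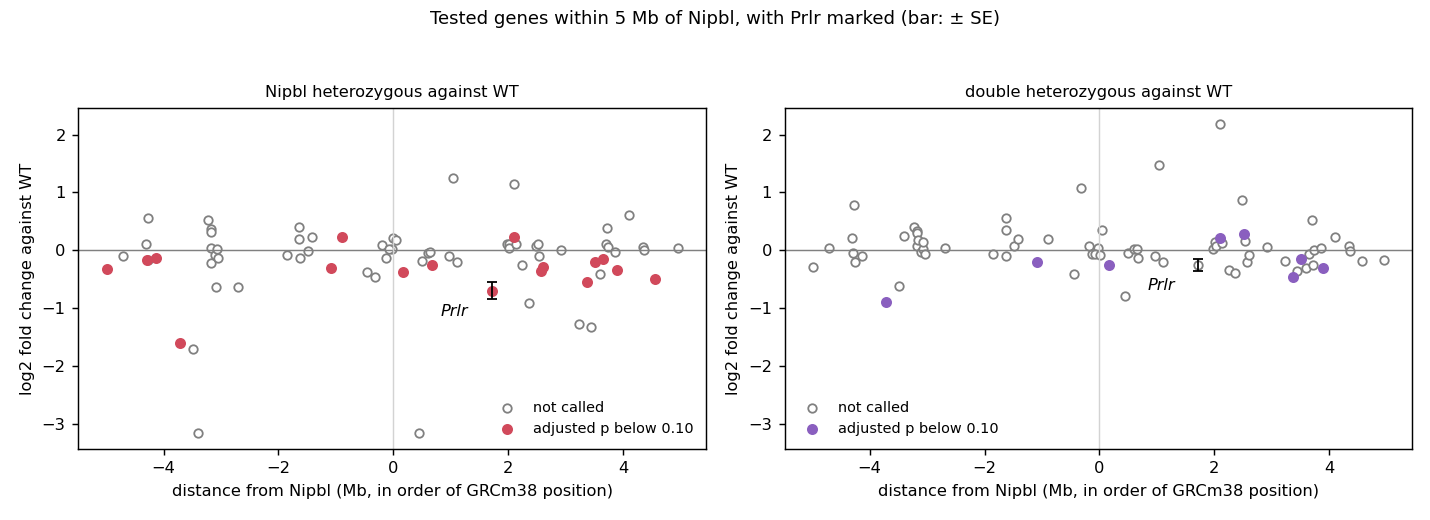
Log2 fold changes against *WT* (vertical axes) of the tested genes within 5 Mb of *Nipbl*, by their distance from it in Mb (horizontal axes), in *Nipbl*+/− (left) and double-heterozygote brains (right), with filled points for an adjusted *P* below 0.10. *Prlr*, marked with its standard error, lies at -0.69 on the left and -0.25 on the right, and *Nipbl* itself is not drawn.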

How the data were processed

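Poly(A) RNA of 21 whole brains was sequenced as paired-end reads. The authors trimmed reads with cutadapt 2.4, mapped them with STAR 2.5.3a to mm10 (GRCm38.p6) and counted them on genes with featureCounts (Subread 1.6.4), and deposited raw counts without normalization. Annotation and strand setting are not given in the sources used here, so reads of overlapping genes (*Gm16090* at *Ttr*, 4 to 14 counts; *Gm35597* at *Folr1* and *Gm41268* at *Prlr*, neither with a row under that name) cannot be told apart. *Otx2os1*, which lies beside *Otx2* without overlap in RefSeq, had 25 to 47 counts. The *Nipbl*+/− library that the authors set aside after quality control was not analysed here. Groups came from the labels. Counts were tested in R 4.3.3 with edgeR 4.0.16 (TMM, quasi-likelihood test, at least 10 summed normalized counts, Benjamini-Hochberg adjusted *P* below 0.10), each comparison on its own libraries, and alternatively with DESeq2 1.42.0. Scripts were tested on simulated data. Correlations between members used log2 CPM without a prior count, with 100000 permutations for those with *Ttr*. The search for genes most like *Ttr* and *Otx2* and the correlations of same-numbered libraries used log2 CPM with a prior count of 2. Gene positions came from a RefSeq table of GRCm38.p6. Other choices tried were filters, normalization, threshold, all groups in 1 fit, replicate block, *mt-Nd3* sets and leaving out libraries. Named were all members, called genes of the lists (at most 5 per list and comparison, the largest changes) and the 5 genes most like *Ttr* and *Otx2*. Of the partner genes, 1 is not reported here by name. The members and lists were chosen with earlier results of these data known.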

Additional observations from a re-analysis of the deposited data

Results flagged for a closer look

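*Enpp2* in *WT* replicate 1 stood far from the others of its group, with 1501 normalized counts where the next lowest *WT* library had 1803, a gap of 0.718 of the group's range. It was the 1 case among 24 groups of 5 to 7 libraries examined, and chance flags about 1 in 20 such groups.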

How the results depend on the processing

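*Prlr* in *Nipbl*+/− brains kept its call in 10 of 10 other settings and in 8 of 8 fits without a library (log2 fold change -0.77 to -0.62 over all). *Otx2* there kept its call in 5 of 10 settings and 3 of 8 such fits, and in double heterozygotes in 8 of 11 and 5 of 11. With 42 to 91 reads, *Prlr* had the least depth of the members beside *Kl* (53 to 107). A fit of libraries with high *mt-Nd3* alone could not be made for *Nipbl*+/− brains, which have none, nor for the interaction.

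The labels do not say whether replicate numbers pair the samples. Over 25 same-numbered pairs the correlation of deviations ran from -0.206 to 0.366 (median 0.0247), with 7 above 0.1. The highest was between replicate 1 of *Wapl*Δ/+ and of *Nipbl*+/−, and replicate 1 of double heterozygotes correlated with these at 0.300 and 0.228. *WT* replicate 1 stood at -0.0534 to 0.0432 with these mutant libraries. *Otx2* was highest in its group in each of them (896, 898 and 927). A factor shared by libraries of the same replicate number was not tested. With the number as a replicate block, the genes called numbered 1893, 1991, 535 and 59 in *Nipbl*+/−, *Wapl*Δ/+ and double-heterozygote brains against *WT* and in double heterozygotes against *Nipbl*+/−, the members called were 1 in *Nipbl*+/− and 0 in double-heterozygote brains, and log2 fold changes turned for *Enpp2* in *Wapl*Δ/+ (-0.0738), *Folr1* in double heterozygotes against *Nipbl*+/− (-0.0271), *Kl* against *Wapl*Δ/+ (0.0400) and *Enpp2* in the interaction (0.0436).

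In *Nipbl*+/− against *WT*, 1658 genes were called with all 4 groups in a single fit and 1881 with low *mt-Nd3* libraries only. The members called there fell from 2 to 1 in both, with *mt-Nd3* as a term and below 0.05. Without a library, 1828 to 4788 genes and 1 to 4 members were called. In *Wapl*Δ/+, DESeq2 called 1446 genes, the threshold of 0.05 left 181, the single fit 7, low and high *mt-Nd3* alone 47 and 278, *mt-Nd3* as a term 305, and the level of the other choroid plexus genes as a term (added after seeing the data) 1024. Without a library it was 9 (*WT* replicate 2) to 1534. In double heterozygotes, 547 remained below 0.05, 602 in the single fit and 1 with high *mt-Nd3* alone, with 0 members called below 0.05 and with high *mt-Nd3*. Without a library it was 454 to 2504 genes and 0 to 1 members. Against *Nipbl*+/−, DESeq2 called 5, and 1 was left below 0.05, with low *mt-Nd3*, with *mt-Nd3* as a term and with the choroid plexus term (1 to 2 without a library). Against *Wapl*Δ/+ it was 626 by DESeq2, 171 below 0.05, 576 in the single fit, 24 and 29 with low and high *mt-Nd3*, 162 with it as a term, and 163 to 449 genes and 0 to 1 members without a library. The interaction had 793 by DESeq2 and 0 to 945 without a library.

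Other log2 fold changes turned, all of uncalled members, and the cause was not tested. In *Wapl*Δ/+ they were *Aqp1* (-0.17) and *Enpp2* (-0.11) with low *mt-Nd3*, *Folr1* (-0.0463) with high *mt-Nd3*, *Aqp1* (-0.0149) and *Enpp2* (-0.0141) with *mt-Nd3* as a term and *Enpp2* (-0.0419) with the choroid plexus term. In double heterozygotes *Ttr* turned (0.00907) with low *mt-Nd3*. Against *Wapl*Δ/+ *Aqp1* (0.23) and *Enpp2* (0.0410) turned with low *mt-Nd3*, *Clic6* (-0.00302) with high *mt-Nd3*, *Aqp1* (0.0589) with *mt-Nd3* as a term, and *Aqp1* (0.0299) and *Kl* (0.0752) with the choroid plexus term. *Enpp2* in the interaction turned with DESeq2 (0.0112), its size factors (0.0101), no filter (0.00581), at least 1 CPM (0.0176), low *mt-Nd3* (0.17) and the choroid plexus term (0.0215).

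Leaving out a library gave, in *Wapl*Δ/+, *Folr1* -0.0587 to 0.21, *Aqp1* -0.0298 to 0.16, *Kl* -0.14 to 0.0279 and *Enpp2* -0.0186 to 0.0913. In double heterozygotes it gave *Ttr* -0.19 to 0.0592 and *Aqp1* -0.0712 to 0.12. Against *Nipbl*+/− it gave *Folr1* -0.0256 to 0.18, *Clic6* -0.00226 to 0.0901, *Otx2* -0.0494 to 0.0848 and *Enpp2* -0.0436 to 0.15. Against *Wapl*Δ/+ it gave *Clic6* -0.0224 to 0.0844 and *Kl* -0.14 to 0.0277. In the interaction it gave *Ttr* -0.24 to 0.0180, *Folr1* -0.19 to 0.0859 and *Enpp2* -0.11 to 0.11. Relative to the other choroid plexus genes it gave *Folr1* -0.0582 to 0.13 and *Aqp1* -0.0274 to 0.0479 in *Wapl*Δ/+ and *Ttr* -0.11 to 0.0461 in double heterozygotes. Without the most abundant listed gene *Aqp1* turned in *Wapl*Δ/+ (-0.0422) and double heterozygotes (-0.0145). Relative to *Ttr*, in *Wapl*Δ/+, *Folr1* (-0.0789), *Clic6* (-0.0141), *Otx2* (-0.0531) and *Aqp1* (-0.14) turned. The correlation of *Otx2* with *Ttr* turned to -0.0778 without *WT* libraries.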
